A study of Zea mays with 18 samples.

Results

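The 150 steadiest well-expressed gene models of maize leaves were described across 3 leaf positions and both plant densities. They were the models with the lowest standard deviation (SD) of log2(RPKM + 0.5) over all 18 libraries, among the 6300 of 31855 gene models whose mean was at least 20 RPKM. RPKM is the number of reads scaled by the length of the gene model and by the read total of the library. The SD over the 18 libraries, the level and every difference between groups entered or followed from that choice, so they are given as a description. Where a fit across all gene models is quoted, it took in the libraries that chose the members, and its calls among them are no independent test. The 150 are 2.38% of the 6300, so small families are counted against that share and no family is called rich or poor in members.

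Genes that cells need at much the same level everywhere are often called housekeeping genes. They serve tasks such as translation, transcription, protein turnover, membrane traffic and the cytoskeleton. A small number of them, among them actin, tubulin, ubiquitin, elongation factor 1-alpha and cytosolic glyceraldehyde-3-phosphate dehydrogenase, have long been used as references to which other transcripts are scaled in quantitative PCR, on the condition that their own level stays even. In a maize leaf the most abundant transcripts are those of C4 photosynthesis, which are known to fall as a leaf ages and feeds the grain.

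Total RNA came from leaves of the maize hybrid Xianyu 335, all taken while the grain was filling and with no treatment other than plant density. At high density, 3 libraries each were made of the third leaf above the ear (HA), the leaf at the ear (HE) and the third leaf below it (HB), and at low density 3 each of the same leaves (LA, LE and LB). The titles place the 3 LA libraries at low density while their treatment field gives high density, and the titles were followed. Plant age, the number of plants per area and whether replicate libraries are separate plants are not given in the labels, so the spread between libraries may be technical.

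The leaf label was checked with 7 markers of mesophyll and bundle sheath cells, and each reached at least 84.6 RPKM in every library. The mesophyll marker pep1, the phosphoenolpyruvate carboxylase gene of C4 photosynthesis, had a lowest value of 374, a median of 4480 and a highest value of 6486 RPKM, and the bundle sheath marker me3, an NADP-malic enzyme gene, ranged from 326 to 964 RPKM. Read totals recovered from the steps of the RPKM values lay between 15973503 reads in HB replicate 1 and 20217176 reads in HA replicate 2, a ratio of 1.27.

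The SD of the 150 gene models ran from 0.056 to 0.11 on the log2 scale, with a median of 0.10, against a median of 0.26 over the 6300. The library with the highest value exceeded the one with the lowest by 1.14 to 1.45 times, with a median of 1.297. All 150 had a ratio below 1.5, which 14.73% of the 6300 had, and 82 of the 150 had a ratio below 1.3. The limit was not a natural gap. GRMZM2G034804, GRMZM2G105712 and GRMZM2G140809 stood just inside it and GRMZM2G138419, GRMZM2G163444 and GRMZM2G090217 just outside, all 6 with an SD of 0.11, and 22 of the 6300 had an SD within 0.001 of it. Of 656 gene models between 18 and 20 RPKM, 14 were as steady and were left out by the minimum level alone.

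**Figure D1:**
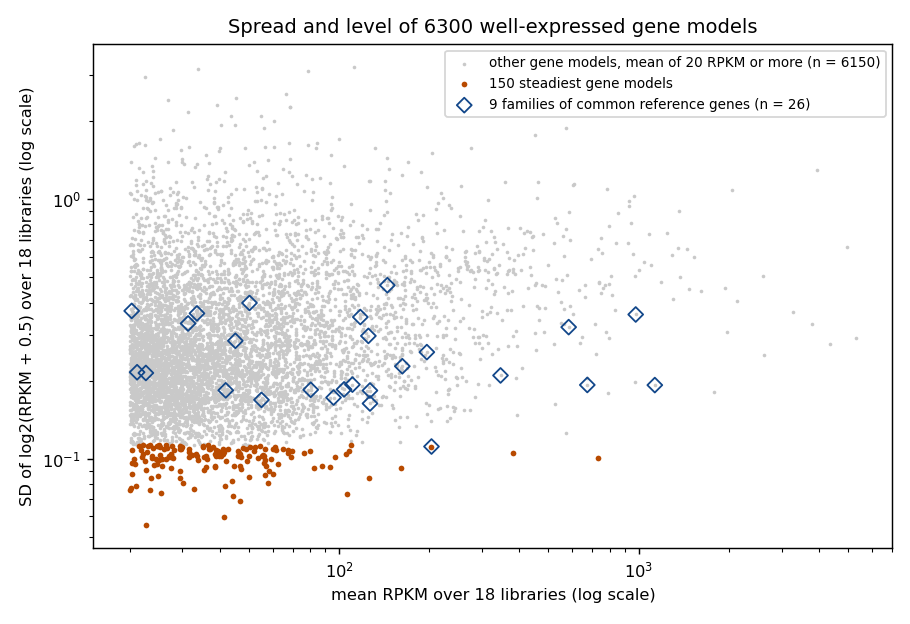
Each point is 1 of 6300 gene models with a mean of at least 20 RPKM; the horizontal axis is its mean RPKM over 18 libraries and the vertical axis the SD of its log2(RPKM + 0.5), both on log scales. The 150 steadiest gene models (orange) form the lower edge, mostly below 100 RPKM, and 1 of the 26 genes of common reference families (diamonds), the profilin gene prf5, lies among them (3.85%, beside 2.38% of all 6300). Profilin was not a planned reference family.

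Most of the 150 were of middling abundance. Their mean level ran from 20.1 to 731 RPKM with a median of 37.6 RPKM, beside a median of 38.1 RPKM over the 6300. Of the 150, 9 (6%) were above 100 RPKM, whereas 866 of the 6300 (13.75%) were. Summed over the 150, the RPKM ran from 7363 in HA replicate 3 to 7794 in LB replicate 1, between 1.25% and 1.37% of all RPKM in a library.

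The steadiest gene model of all was GRMZM2G073123, which has no gene name in the annotation used. It had 24.03, 22.6 and 22.3 RPKM in HA, 22.5, 21.8 and 22.9 in LA, 22.3, 22.6 and 22.5 in HE, 24.4, 23.6 and 24.003 in LE, 22.03, 23.7 and 22.1 in HB, and 21.4, 21.6 and 21.9 in LB. Its 18 values spanned a ratio of 1.14, with the LE libraries high, above all LA, HE and LB libraries, and the LB libraries low together with LA replicate 2. The second, GRMZM2G019267, had 38.5, 40.4 and 40.9 RPKM in HA, 40.4, 40.1 and 38.9 in LA, 40.2, 42.1 and 40.01 in HE, 42.8, 43.4 and 42.5 in LE, 42.9, 43.4 and 42.1 in HB, and 40.2, 45.0 and 40.2 in LB. Its LE and HB libraries lay above all HA and LA libraries, yet its group means differed by at most 0.11 on the log2 scale.

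The next 18 in order of SD included 1 named gene, HDA108. The others of these 18 were GRMZM2G094388, GRMZM2G116563, GRMZM2G035417, GRMZM2G058105, GRMZM2G114098, GRMZM2G019084, GRMZM2G101596, GRMZM2G141596, GRMZM2G094959, GRMZM2G147459, GRMZM2G041275, GRMZM2G007381, GRMZM2G017016, GRMZM2G110822, GRMZM2G018103, GRMZM2G162786 and GRMZM2G020034. Their SD ran from 0.069 (GRMZM2G094388) to 0.086 (GRMZM2G020034), and their mean level from 20.1 RPKM (GRMZM2G114098) to 126 RPKM (GRMZM2G018103). GRMZM2G035417 combined a mean of 106 RPKM with an SD of 0.073. Its values in HA were 102, 100.2 and 96.2 RPKM and in LB 119, 117 and 109 RPKM, the lowest and the highest of its groups, which did not overlap.

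HDA108 (GRMZM2G136067), a histone deacetylase of the RPD3 type that removes acetyl groups from histones, was the ninth steadiest of the 6300. It had 31.6, 33.6 and 33.9 RPKM in HA, 29.3, 34.5 and 32.1 in LA, 34.1, 32.8 and 35.2 in HE, 32.1, 34.6 and 31.5 in LE, 35.6, 31.7 and 30.8 in HB, and 32.6, 34.3 and 30.5 in LB. All 6 groups overlapped, and its group means differed by at most 0.09 on the log2 scale, while the SD between libraries of a group was 0.08. Of the 5 named histone deacetylase genes among the 6300, HDA108 alone was in the 150. The RPD3-type gene hda101 (GRMZM2G172883) followed at an SD of 0.13 and Hda1 (GRMZM2G457889) at 0.14, and the plant-specific HD2-type gene hdt103 (GRMZM2G159032) was the least steady at 0.36.

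With HDA108, 14 members (9.33%) had a gene name, against 891 (14.1%) of the 6300. The RefSeq table of another assembly matched 136 of the 150 by identifier, and most matched entries carry only a locus number. Function can therefore be described for few members.

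**Figure D2:**
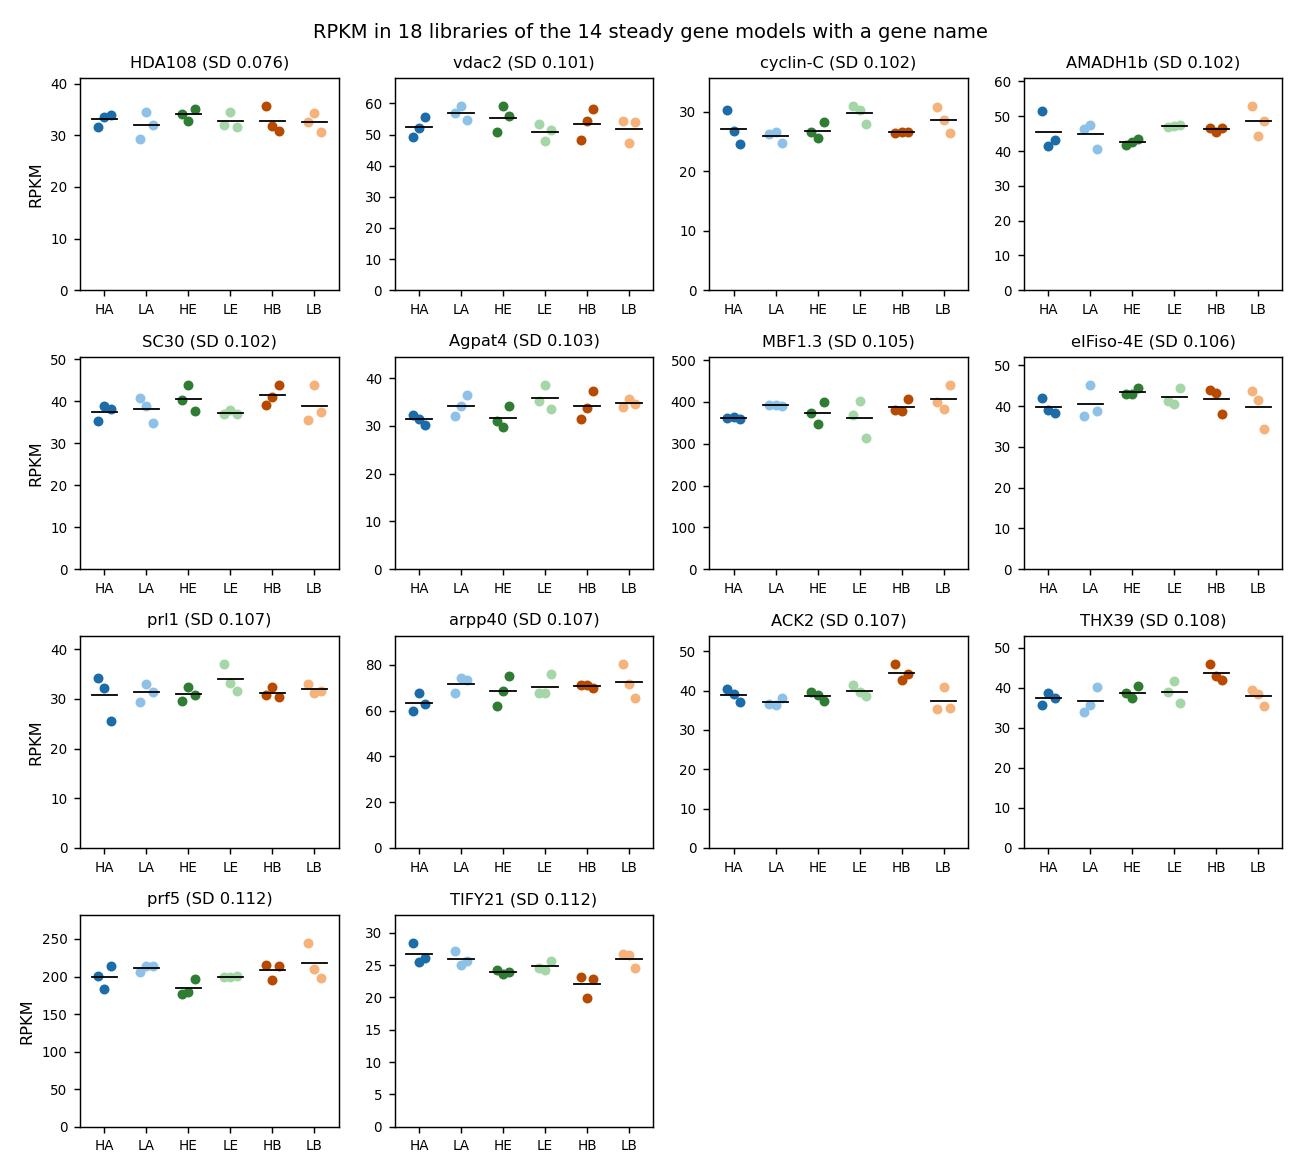
RPKM (vertical axes, from 0) in each of 18 libraries (points, grouped on the horizontal axis) for the 14 steady gene models with a gene name; black lines are means of 3 libraries and the SD in each title is that of log2(RPKM + 0.5). All 6 groups overlap for HDA108, while ACK2 and THX39 lie highest and TIFY21 lowest in the HB libraries. HA lies below LA, HB and LB for MBF1.3 and below HE for eIFiso-4E, and HE lies below LE, LA and LB for prf5.

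Members that act on RNA and protein synthesis were found at very different levels. MBF1.3 (GRMZM5G800112), a multiprotein bridging factor that links transcription activators to the basal machinery, was the second most abundant of the 150. It had 361, 363 and 359.8 RPKM in HA, 393, 392 and 390.2 in LA, 374, 347 and 399.9 in HE, 369, 402 and 315 in LE, 380.5, 378 and 406 in HB, and 401, 383 and 441 in LB. The HA libraries lay below all LA, HB and LB libraries, while the LE libraries on their own spanned both the HA and the LA values. Its relative MBF1 gene GRMZM2G101480 had an SD of 0.17, compared with 0.11 for MBF1.3.

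The cap-binding translation factor eIFiso-4E (GRMZM2G022019), which recruits the ribosome to messenger RNA, had 42.1, 39.0 and 38.2 RPKM in HA, 37.5, 45.2 and 38.7 in LA, 42.9, 42.9 and 44.5 in HE, 41.3, 40.6 and 44.6 in LE, 43.9, 43.3 and 38.1 in HB, and 43.7, 41.4 and 34.4 in LB. The HE libraries lay above the HA libraries, and all other pairs of groups at the same density or position overlapped. Among 7 named translation factor genes other than those of elongation factor 1-alpha and initiation factor 4A, it alone was in the 150, and their median SD was 0.26. The gene arpp40 (GRMZM2G126821), named for an acidic ribosomal protein, ranged from 59.98 RPKM in HA replicate 1 to 80.5 RPKM in LB replicate 1. It was 1 of 31 named ribosomal protein genes, of which no other was in the 150, and those 31 had a median SD of 0.21 and reached 0.63.

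The cyclin-C gene (GRMZM2G408242), whose product partners the kinase of the Mediator complex of transcription, ranged from 24.6 RPKM in HA replicate 3 to 30.9 RPKM in LE replicate 1. THX39 (GRMZM2G001272), of the trihelix family of DNA-binding proteins, ranged from 33.98 RPKM in LA replicate 1 to 45.9 RPKM in HB replicate 1. Its 3 HB values of 45.9, 42.8 and 41.96 RPKM lay above every other library, the next being 41.7 RPKM in LE replicate 2. THX39 matched more than 1 entry of the annotation, as did prl1 and prf5, so the names of these genes are less certain.

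Members of metabolism, membranes and the cytoskeleton spanned similar ratios. The gene vdac2 (GRMZM2G115049), for the voltage-dependent anion channel of the outer mitochondrial membrane, ranged from 47.4 RPKM in LB replicate 2 to 59.2 RPKM in LA replicate 2. AMADH1b (GRMZM2G016189), an aminoaldehyde dehydrogenase that acts in the breakdown of polyamines, ranged from 40.6 RPKM in LA replicate 3 to 52.9 RPKM in LB replicate 1. Agpat4 (GRMZM2G037104), a lysophosphatidic acid acyltransferase of lipid synthesis, ranged from 29.7 RPKM in HE replicate 2 to 38.6 RPKM in LE replicate 2. For these 3 genes the highest library exceeded the lowest by 1.25, 1.303 and 1.298 times, and group means differed by 0.16, 0.18 and 0.18 on the log2 scale.

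The profilin gene prf5 (GRMZM5G877388), whose product binds actin monomers, was the third most abundant of the 150. It had 201, 183 and 214 RPKM in HA, 206, 214 and 214 in LA, 176, 179 and 197 in HE, 199, 199 and 201 in LE, 215, 196 and 215 in HB, and 245, 210.3 and 198 in LB. The HE libraries lay below all LE, LA and LB libraries and overlapped with HA and HB. Another gene model shares its RefSeq entry, so reads of near-identical copies could have been divided between them.

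The named members SC30 (GRMZM2G016296), prl1 (GRMZM2G133919) and ACK2 (GRMZM2G143602), are given by their values alone. SC30 ranged from 34.8 RPKM in LA replicate 3 to 43.9 RPKM in HE replicate 2, and prl1 from 25.6 RPKM in HA replicate 3 to 37.0 RPKM in LE replicate 1. The ratio of 1.45 in prl1 was the highest of the 150, and its other 16 values lay between 29.4 RPKM in LA replicate 1 and 34.2 RPKM in HA replicate 1.

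The 10 most abundant members were GRMZM2G126361, MBF1.3, prf5, GRMZM5G870752, GRMZM2G018103, GRMZM2G140809, GRMZM2G051782, GRMZM2G035417, GRMZM2G134230 and GRMZM2G031824. GRMZM2G126361 had 831, 768 and 775 RPKM in HA, 798, 701 and 804 in LA, 750.2, 702 and 706 in HE, 723, 676 and 690.1 in LE, 664, 688 and 794 in HB, and 698, 675 and 710.1 in LB. Its HA libraries lay above all HE, LE and LB libraries, and HB replicate 1 was its lowest library while HB replicate 3 stood among the HA values. GRMZM5G870752 ranged from 143 to 181 RPKM and GRMZM2G018103 from 114 to 139.7 RPKM, and the other 5 unnamed members of the 10 had means of up to 109.9 RPKM (GRMZM2G140809).

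Apart from prf5 at position 136, the genes listed as references stood between positions 1002 and 5130 of the 6300 in order of SD. Named members of 9 families listed as references made up 26 of the 6300, and 1 of them, prf5, was among the 150 (3.85%, beside 2.38% of the 6300). Profilin, the family of prf5, was not a planned reference family and was listed after the SDs were seen. No other family of the 9 held a member. Cyclophilin, protein phosphatase 2A, folylpolyglutamate synthase and LEUNIG were planned as reference families but are not among the 9. Their planned name patterns matched none of the 6300, so their steadiness was not assessed. The 4 actin genes had an SD from 0.18 (GRMZM2G053299) to 0.40 (GRMZM2G126010), and the 2 alpha-tubulin genes 0.33 (GRMZM2G153292) and 0.37 (GRMZM2G152466). The 4 genes of polyubiquitin and ubiquitin fusions ran from 0.18 (GRMZM2G431821) to 0.36 (GRMZM2G118637), and the 4 elongation factor 1-alpha genes from 0.17 (GRMZM2G149768) to 0.26 (GRMZM2G154218). The steadiest of the 26 apart from prf5 was the initiation factor 4A gene GRMZM2G116034, with an SD of 0.16.

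The rest of these families stood in the same range. Cytosolic glyceraldehyde-3-phosphate dehydrogenase had an SD of 0.19 for GAPC2 (GRMZM2G180625) and 0.36 for GAPC1 (GRMZM2G046804). Its values for GAPC1 went from 556 RPKM in HB replicate 3 to 1335 RPKM in LE replicate 1, and the other initiation factor 4A gene, GRMZM2G027995, had an SD of 0.35. The cullin genes, whose products scaffold ubiquitin ligases, had 0.17 (GRMZM2G166089) and 0.21 (GRMZM2G704093). Ubiquitin-conjugating enzymes ran from 0.19 (GRMZM2G012052) to 0.47 (GRMZM2G007276), and the second profilin gene, GRMZM2G108780, had 0.19. The actin gene GRMZM2G126010, named act1, ranged from 32.9 RPKM in HA replicate 3 to 82.3 RPKM in HB replicate 1, a ratio of 2.50.

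Named genes of photosynthesis had higher SDs. The 11 photosystem and antenna genes had a median SD of 0.69 and a lowest value of 0.37 (GRMZM2G080107), and the 10 named C4 and Calvin cycle genes a median of 0.60, beside 0.26 over the 6300, and none was among the 150. Of other families, the 150 held 1 of 6 named mitochondrial channels and carriers, 1 of 3 aminoaldehyde dehydrogenases and 1 of 8 TIFY genes. The 150 are 2.38% of the 6300, and these lists were written after the names and SDs were seen, so nothing is read from the counts. None of 7 genes listed by symbol as SR splicing proteins was among the 150, and GRMZM2G436092 missed the limit at an SD of 0.11. That list did not take in the member SC30, so the absence holds for the 7 listed genes only.

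Of the variation that remained among the 150, a smaller share lay between groups than for the 6300. Of their summed variance on the log2 scale, 43.3% lay between the 6 groups, compared with 77.3% for the 6300. The choice used the SD over the same libraries, so these shares are a description only. A summed variance also gives most weight to the most variable gene models. The SD between libraries of a group had a median of 0.09 for the 150 and 0.17 for the 6300, and the range of the 6 group means a median of 0.18 and 0.59. The first principal component held 20.01% of the variance of the 150 and 60.65% of that of the 6300.

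Every group was the highest and the lowest for some members. LE held the highest mean of 40 members (26.7%, beside 22.6% of the 6300), HB of 37 (24.7%, beside 41.4%) and LB of 24 (16%, beside 6.52%). LA did so for 17 (11.3%, beside 13.8%), HA for 16 (10.7%, beside 9.41%) and HE for 16 (10.7%, beside 6.33%).

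The lowest mean was in LA for 39 members (26%, beside 25.3% of the 6300), in HA for 32 (21.3%, beside 16.9%) and in HB for 25 (16.7%, beside 29.8%). It was in HE for 25 (16.7%, beside 8.73%), in LB for 16 (10.7%, beside 4.79%) and in LE for 13 (8.67%, beside 14.4%). HB was thus an end of the range for a smaller share of the 150 than of the 6300, and LB and HE for a larger share, and these values follow from those that chose the members.

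**Figure D3:**
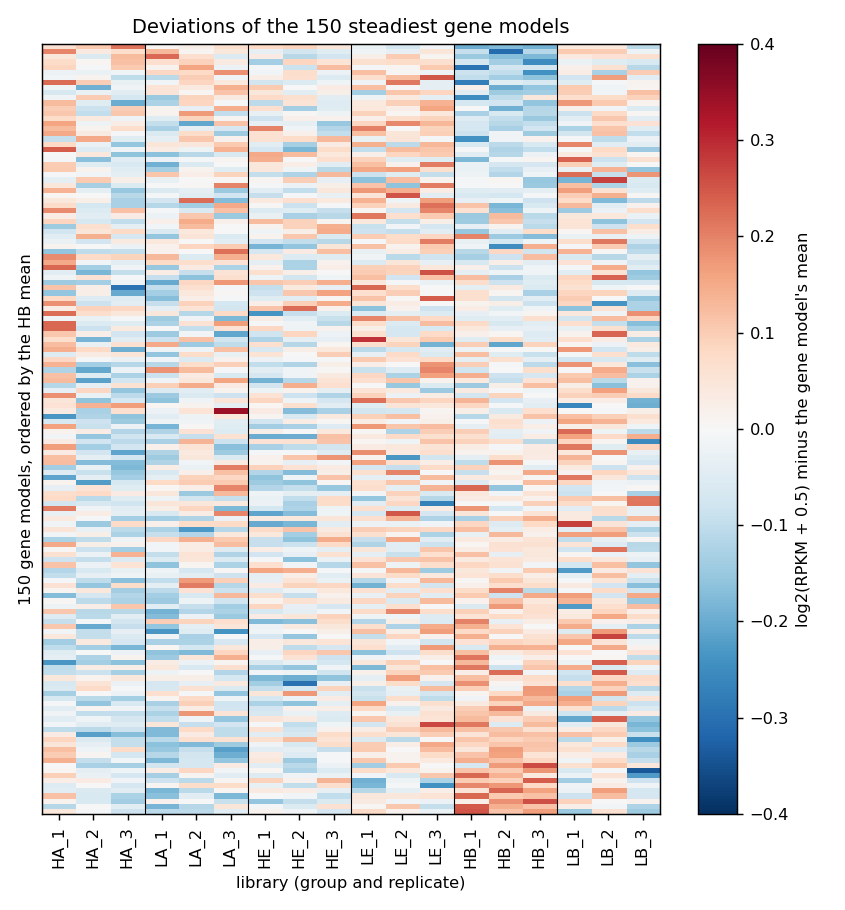
Colour gives log2(RPKM + 0.5) minus the gene model's own mean, from -0.4 to 0.4, for 150 gene models (rows, ordered by the mean of the HB libraries) in 18 libraries (columns). Some rows are low and others high in all 3 HB libraries, and single libraries such as LE_3, LB_2 and LB_3 hold scattered strong values.

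Differences between groups were fitted with limma across 21184 gene models, and a gene model was called at a Benjamini-Hochberg adjusted p under 0.05. Because the choice used the same libraries, nothing is read from the counts of members called. For a difference among any of the 6 groups, 1 member, GRMZM2G148130, was called, beside 53.9% of all gene models tested. For density in the lower leaf (HB against LB) 3 members were called beside 33.4%. For HB against HE 3 were called beside 27.9%. No member was called by limma for HE against LE (13.9% of all), HA against LA (0.118%), HA against HE (2.44%), LA against LE (5.74%) or LB against LE (0.288%). At an unadjusted p under 0.05 the same fit had 8 members for HE against LE (30.1% of all gene models), 3 for HA against LA (8.8%), 3 for HA against HE (14.9%), 13 for LA against LE (27.9%) and 2 for LB against LE (12%). Comparisons that share a group share its 3 libraries. The counts moved with single libraries, from 0 to 8 for HB against LB and from 0 to 5 for HB against HE. The highest came without LB replicate 2 (42.4% and 32.2% of all gene models), and both were 0 without HB replicate 3 (24.3% and 21.1%). They also moved with the scaling, to 26 for HB against LB after median-ratio rescaling (30% of all gene models), all lower in HB, so that ACK2 and GRMZM2G098153 were not called there.

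The size of the differences was small by the choice. The median absolute log2 difference of the 150 lay between 0.06 for LB against LE and 0.09 for HE against LE, and that of the 6300 between 0.12 and 0.31.

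The 6 members called in a comparison with HB had group means that differed by 0.26 to 0.31 on the log2 scale. ACK2 had 46.8, 42.6 and 44.2 RPKM in HB and 35.4, 41.0 and 35.5 in LB, a log2 difference of 0.26 ± 0.08 (SE). Its HB libraries lay above every other library, the next being 41.4 RPKM in LE replicate 1. GRMZM2G098153 had 41.0, 40.7 and 42.9 RPKM in HB and 36.3, 37.7 and 29.8 in LB, a difference of 0.27 ± 0.09. LB replicate 3 was its lowest library, and the 3 HB libraries were its highest.

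TIFY21 (GRMZM2G058479), of the TIFY family that includes repressors of jasmonate signalling, was lower in HB. It had 28.5, 25.5 and 26.04 RPKM in HA, 27.2, 24.98 and 25.6 in LA, 24.3, 23.6 and 23.97 in HE, 24.5, 24.2 and 25.7 in LE, 23.2, 19.9 and 22.9 in HB, and 26.7, 26.6 and 24.5 in LB. The 3 HB libraries were its lowest, and the difference of HB from LB was -0.23 ± 0.09.

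The 3 members called between HB and HE had no name. GRMZM2G148130 had 23.2, 23.4 and 23.2 RPKM in HB and 28.1, 28.3 and 27.5 in HE, a difference of -0.26 ± 0.08. Its HB libraries lay below all 15 others, of which LB replicate 3 was lowest at 24.6 RPKM, and the range of its group means, 0.31, was the widest of the 150. GRMZM2G085948 had 43.2, 41.2 and 41.8 RPKM in HB and 35.003, 34.6 and 35.5 in HE, where the HE libraries lay below the 15 others. GRMZM2G074404 had 55.9, 62.6 and 66.0 RPKM in HB and 49.4, 51.5 and 52.9 in HE, and these did not overlap. After median-ratio rescaling, all 8 members called between HB and HE (25.4% of all gene models) were lower in HB. GRMZM2G085948 and GRMZM2G074404, higher in HB as deposited, were thus not called as higher there.

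In the other comparisons the members with the widest difference were not called. They were GRMZM2G031824 (-0.24 ± 0.09) and GRMZM2G085948 (-0.23 ± 0.08) for HE against LE, and GRMZM2G118743 (-0.28 ± 0.09) and GRMZM2G418232 (-0.26 ± 0.08) for LA against LE. For HA against LA they were GRMZM2G032190 (-0.22 ± 0.10) and GRMZM2G083755 (0.21 ± 0.08), and for HA against HE GRMZM2G000650 (0.24 ± 0.09) and GRMZM2G116282 (-0.22 ± 0.10). For LB against LE they were GRMZM2G031213 (0.22 ± 0.09) and GRMZM2G115615 (-0.20 ± 0.09). All values are log2 differences with their SE.

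Whole reads and gene model lengths were recovered from the RPKM steps for 6292 of the 6300 and for all 150, with a tolerance of 0.03 reads. The median library of a member held from 408 reads to 34880 (GRMZM2G126361), with a median of 1106 over members, beside 1212 for the 6300. Recovered lengths ran from 800 to 4419 bases with a median of 1711, beside 1698 bases for the 6300.

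Counting error alone gave a median SD of 0.04 on the log2 scale, which was 18.1% of a member's variance at the median and 2.46% for the 6300. It reached 25% or more for 45 members, or 30%, against 1.24% of the 6300. For 4 members it made up 50% or more, and these were GRMZM2G073123, GRMZM2G058105, GRMZM2G101596 and GRMZM2G032314. In GRMZM2G073123, with a median of 542 reads, the counting SD of 0.06 exceeded the SD observed. Counting error made up 3.05% of the variance of MBF1.3 and 32.03% of that of HDA108.

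In the order of genes in the RefSeq table, 140 entries matched members. An entry of another of the 6300 stood beside 41 of the 140 (29.3%), and beside 1849 of the 5082 entries of the 6300 (36.4%).

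The steadiness was followed in libraries that the choice had not used. When each group was left out and 150 gene models were chosen again from the other 15 libraries, the left-out group differed from the mean of the rest by a median of 0.05 (LB) to 0.09 (LE) on the log2 scale in all groups but HB. All gene models of at least 20 RPKM differed by 0.11 to 0.20 in the same groups. For HB the median was 0.15 among the 150 and 0.34 among all. A difference of over 0.32 was found for 19 of the 150 (12.67%) in HB, compared with 52.78% of all, and for 1 of 150 in HA (23.38% of all). It was found for 0 of 150 in LA (28.42% of all), HE (12.57%), LE (25.16%) and LB (11.69%).

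**Figure D4:**
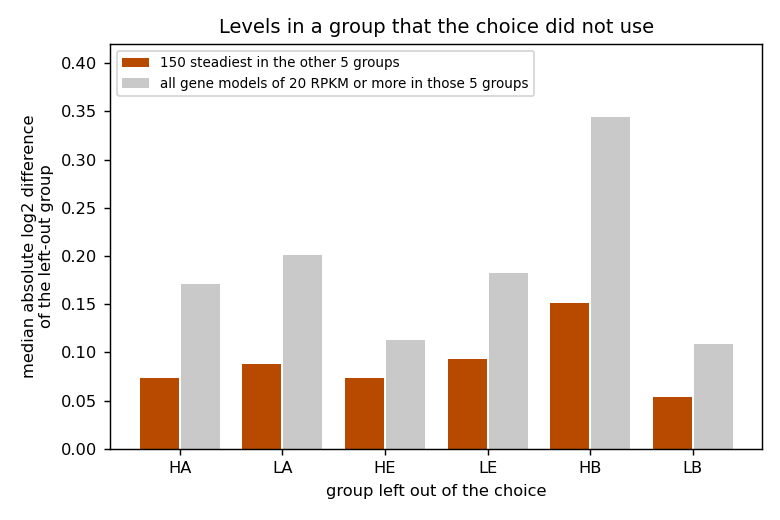
Bars give the median absolute log2 difference of a left-out group (horizontal axis) from the mean of the other 5 groups, for 150 gene models chosen as steadiest in those 5 groups (orange) and for all gene models of at least 20 RPKM there (grey). The orange bars reach 0.05 to 0.15 and the grey bars 0.11 to 0.34, and both are highest for HB.

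The 19 gene models that were steady in 5 groups and shifted in HB went both ways, 10 higher and 9 lower. GRMZM2G102502 was highest, with a mean of 62.0 RPKM in HB against 39.6 RPKM over the other groups, a log2 difference of 0.64. The gene tha9 (GRMZM2G128432) was lowest, with 39.7 RPKM against 61.4 RPKM, a difference of -0.62. The only other one with a name, fdh1 (GRMZM5G824600), had 67.7 RPKM in HB against 84.9 RPKM, a difference of -0.32. Of the 150 chosen without HB, 86 were among the 150 chosen with it.

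With 1 library left out, the 150 chosen again shared 125 to 139 gene models with the original 150. The left-out library then deviated by a median of 0.06 (HE replicate 3) to 0.12 (LA replicate 1) for those chosen and by 0.12 to 0.35 for all. At most 9 of the 150, in HB replicate 1, deviated by over 0.32, where 48.37% of all did. Of the original 150, 110 were chosen whichever library was left out, among them HDA108, vdac2, MBF1.3, eIFiso-4E and ACK2, and THX39, prf5 and TIFY21 were not.

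Membership turned on the scaling of the libraries. RPKM fixes the total of reads. Scaling instead on the median ratio over genes divided each library by a factor, whose log2 ran from -0.13 (LA replicate 3) to 0.19 (HB replicate 2). The log2 factors of the HB libraries were 0.12 to 0.19, so the rescaling lowered their values, and it raised those of LA replicate 3. After that rescaling the median SD of the 150 was 0.12 and the highest 0.18. The median was 0.258 over the 6300 before it, and 0.255 over the gene models with a mean of at least 20 RPKM after it. Only 42 of the 150 were among the 150 steadiest so rescaled, and 38 were chosen under RPKM, median-ratio and quantile scaling alike.

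**Figure D5:**
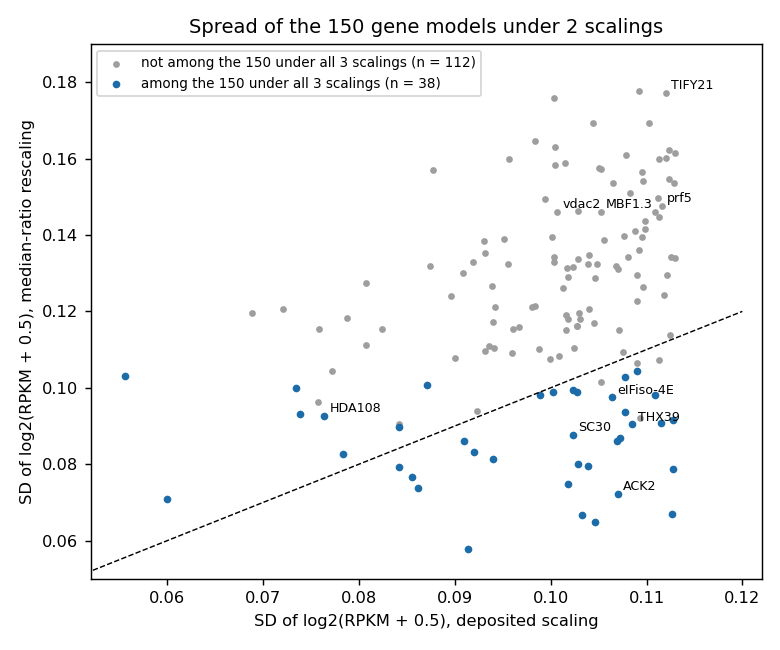
Each point is 1 of the 150 gene models, with the SD of log2(RPKM + 0.5) as deposited on the horizontal axis and after median-ratio rescaling on the vertical axis; the dashed line marks equal values. The 38 chosen under all 3 scalings (blue) lie under 0.11, and TIFY21, prf5, MBF1.3 and vdac2 rise above it.

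Of the named members, HDA108, SC30, eIFiso-4E, ACK2 and THX39 were among the 150 under all 3 scalings. ACK2 moved from position 103 of the 6300 to position 9 after the median-ratio rescaling, with an SD of 0.07. HDA108 moved from 9 to 73, and THX39 from 113 to 63. TIFY21 moved from 139 to 1543, with an SD of 0.18, and MBF1.3, vdac2 and prf5 to 824, 826 and 868. GRMZM2G019267 stood at 2, at 7 after the median-ratio rescaling and at 1 after quantile normalization, and was chosen whichever library was left out. Unnamed members stood near the head of the order after the median-ratio rescaling. GRMZM5G866100 moved from position 28 to 2, GRMZM2G105772 from 90 to 3, GRMZM2G103430 from 83 to 4 and GRMZM2G100707 from 145 to 5. GRMZM5G866100 had 50.5, 47.4 and 44.8 RPKM in HA, 43.5, 44.7 and 41.1 in LA, 48.2, 45.4 and 46.8 in HE, 47.7, 47.5 and 49.5 in LE, 51.0, 52.6 and 48.9 in HB, and 47.9, 48.2 and 43.0 in LB. Its LA libraries were low and its HB libraries high as deposited, and rescaling brought its SD from 0.09 to 0.06. The only gene model ahead of it, GRMZM2G051374, was not among the 150, with an SD that placed it at 258 as deposited.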

How the data were processed

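RPKM values of 31855 gene models were deposited for each of 18 libraries, and per the submitters' processing notes the authors used Trimmomatic 0.35, HISAT 0.1.6 and HTSeq 0.6.1 with the build B73 RefGen_v3. The RPKM formula, strandedness and read totals are not given in the sources used here, so antisense or overlapping gene models and near-identical copies may share reads. The members, gene lists and named genes were chosen with earlier results of these data known, and the lists of gene families by symbol were written after the names and SDs were seen. They include 9 reference families and stand in for planned lists that needed gene descriptions. Of the 9, profilin was not a planned reference family. Named genes were the 20 with the lowest SD, the 10 most abundant, 3 on either side of the limit, the 2 with the largest difference per comparison, the ends of each reference family and, chosen after their values were seen, all members with a gene name, all members called and examples from the left-out and rescaled choices.

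From the deposited RPKM, log2(RPKM + 0.5) was computed. The 21184 gene models that reached 1 RPKM in 3 or more libraries entered limma (version 3.58.1, R 4.3.3). All 18 libraries were fitted together by group with an intensity trend, and 2-sided p-values were adjusted by Benjamini-Hochberg. Residual degrees of freedom were 12 and prior ones 4.47, and the procedure was tested on simulated data. With 3 libraries on either side, the smallest exact permutation p is 0.1. Whole reads were recovered by finding, per gene model, the numbers of reads whose ratios match the RPKM ratios between libraries, and lengths and read totals followed from the RPKM definition. All recovered lengths lay within 0.1 of a whole base. These reads served only to give the counting error, as the square root of the mean of 1/reads on the log2 scale, which covers counting error only. The members were chosen again with each library or group left out, and the deviation of what was left out was taken against the mean of the rest. Alternatives were other pseudocounts, minimum levels, measures of steadiness, scalings and sets of libraries, and a fit that adds replicate number as a block. RefSeq gene names were those listed for Zm-B73-REFERENCE-NAM-5.0. As that assembly is not the build of the files, names and gene order were taken from it and positions were not. The labels name no batch, date or lane.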

Additional observations from a re-analysis of the deposited data

How the results depend on the processing

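Of the 150, 147 were chosen again with a pseudocount of 0.1 or 1, 138 by the coefficient of variation, 103 with a minimum of 10 RPKM and 112 without the LA libraries. Subtracting the counting variance, an alternative added after seeing the data, retained 134. Fewer were retained by median-ratio rescaling (42), quantile normalization (76), median absolute deviation (62), the range of group means (74), a minimum of 50 RPKM (42, with a median SD of 0.1278) and without the 3 HB libraries (86). Leaving out 1 library retained 125 to 139, with a median SD from 0.101 to 0.1043. Members of the reference families numbered 0 under median-ratio and 0 under quantile scaling, which were also added after seeing the data. The cause of these changes was not tested.

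Members called for any of 6 groups numbered 3 with no filter on low values (37.6% of all gene models tested), 20 after median-ratio rescaling (52.9%) and 11 after quantile normalization (53.1%). Median-ratio rescaling gave 2 for HE against LE (15%) and 26 for HB against LB (30%), the 26 all lower in HB. It gave 8 for HB against HE (25.4%), also all lower in HB. Quantile normalization gave 9 for HB against LB (30.8%), all lower in HB. For HB against HE it gave 10 (27.9%), of which 9 were lower and 1 higher in HB. Leaving out 1 library gave 0 to 6 for any group, 0 to 8 for HB against LB, 0 to 5 for HB against HE and 0 to 4 for LA against LE. It gave 0 in the other 4 comparisons, where at most 18% of all gene models were called. The highest counts came without LB replicate 2, where 61.7%, 42.4%, 32.2% and 12.9% of all gene models were called. Without HB replicate 3 none was called in HB against LB (24.3% of all gene models) or HB against HE (21.1%). Without HE replicate 1 or 2 none was called in HB against HE (20.4% and 21.5%). HB against LB fell to 1 without HB replicate 1 (30.3%) or 2 (24.7%) or LB replicate 1 (24.4%) or 3 (21.8%). HB against HE fell to 1 without HB replicate 1 (23.5%). The count for any group was 0 without HA replicate 2 or 3 or any HE or HB library (45.4% to 52.4%). It was 2 without HA replicate 1 (53%), LE replicate 2 (51.5%) or LB replicate 1 (52.7%), and LA against LE had 1 without HA replicate 1 (6.51%). Same-numbered libraries deviated together, with all correlations above 0.1, in only 2 of 15 pairs of groups, so the numbers were not taken as pairs. The replicate block gave 1 member for any group (57.1% of all gene models), 4 for HB against LB (36.1%), 3 for HB against HE (30.5%) and 0 in the other 5 comparisons (0.17% to 17.6%).

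Sequence features, which needed sequences not used here, were not run. The planned lists were matched against RefSeq names without descriptions: 7 of 21 class lists held any of the 6300, and 1, the cytoskeleton, a member (1 of 7), while 3 of 12 reference family lists held any of the 6300 and 0 a member. Each group had 3 libraries, which limits the precision of every SD and difference.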
